A study of Mus musculus with 6 samples.

Results

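The genes described here are Txnip, its arrestin relatives Arrdc4, Arrdc3 and Arrdc2, the transcription factor genes Mlx and Mlxip, and the thioredoxin genes Txn1, Txn2, Txnrd1 and Txnrd2. They were taken by name from a list that was selected on measured values, since it was written with results of the same 6 libraries in view. Their differences between the groups are therefore a description, and no test of them is offered as evidence. All 10 of the 10 listed genes were found in the deposited count table. It lists 17047 genes with a symbol in GENCODE M21 and 21 without, after the authors had removed genes with low counts.

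Lateral cortex was dissected from 6 female c57/bl6 embryos at embryonic day 12.5 and profiled by bulk RNA-Seq. The 4 controls were negative for Cre, with the genotype Foxp1 fl/+ in controls 1, 2 and 4 and Foxp1 fl/fl in control 3. The 2 remaining embryos carried Foxp1 fl/fl;Emx1Cre and are called Foxp1cKO, so every embryo carried a floxed allele and no embryo carried the Cre without being homozygous for it. Cre driven from Emx1 recombines in progenitors of the dorsal telencephalon and in the cells they make, but not in blood vessels, microglia or neurons born ventrally, which the dissected tissue also holds. The labels number the embryos without giving litters, and p-values measure only the spread between these libraries.

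Each library held between 50076008 and 78346979 counts, and levels are given as CPM, counts scaled to a common library size with edgeR's TMM method. At these totals 3 counts correspond to 0.0381 to 0.0596 CPM, a floor that covers counting error only. Foxp1 had 59.7, 60.8, 71.2 and 79.1 CPM in controls 1 to 4 and 83.2 and 76.8 CPM in the libraries labelled Foxp1cKO 1 and 2. Counting the whole gene, which does not isolate the floxed exons, therefore showed no loss of Foxp1, and the groups are named by their labels. Some libraries stood apart for other cell types. Control 3 had 250 CPM of Gad2, a ventral interneuron gene, against 57.9 to 83.6 CPM in the other controls. The libraries labelled Foxp1cKO 1 and 2 had 157 and 116 CPM of Gad2, also above those other controls. Control 4 had 559 CPM of the embryonic globin Hba-x against 80.2 to 112 CPM in the other controls, and 720 and 653 CPM were found in the libraries labelled Foxp1cKO. The cortical markers Pax6 and Tbr1 were present in every library, at 171 CPM or more and at 251 CPM or more.

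Thioredoxins are small proteins that reduce disulfide bonds in other proteins, and thioredoxin reductases restore them with electrons from NADPH. Txnip, the thioredoxin-interacting protein, is an alpha-arrestin that binds thioredoxin and also draws glucose transporters from the cell surface, so that it restrains glucose uptake. Its transcription is a classical response to glucose: the Mondo factor encoded by Mlxip pairs with Mlx, enters the nucleus when glucose phosphates rise, and binds carbohydrate response elements in the promoters of Txnip and its close relative Arrdc4. In the embryonic cortex, neural progenitors rely strongly on glycolysis before the tissue is vascularized, which makes this brake on glucose uptake of interest beside glucose transporters.

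Txnip (ENSMUSG00000038393.14, chromosome 3, 96557957 to 96561883, plus strand, GRCm38) was the member that differed most between the groups. Controls 1 to 4 had 88.4, 73.9, 58.8 and 40.4 CPM of Txnip. The libraries labelled Foxp1cKO had 11.96 and 11.97 CPM. The lowest control was 3.37 times the higher of the libraries labelled Foxp1cKO, and the groups did not overlap. The log2 fold change was -2.45 (SE 0.317, 4 controls and 2 libraries labelled Foxp1cKO), which is 5.46-fold lower, from a control mean of 65.3 ± 20.6 CPM (SD, n = 4). Behind these levels were 602 and 908 counts in the libraries labelled Foxp1cKO, with counting errors of 4.08% and 3.32%, and 3179 to 5472 counts in the controls. A lower fold change was found for 7 genes, with a mean of at most 7.36 CPM over the libraries, and Txnip had the lowest fold change of the 10099 genes with a mean of at least 10 CPM.

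Txnip also varied among the controls themselves, where the highest library had 2.19 times the level of the lowest. The SD of log2 CPM among controls was 0.49, above that of 95.4% of the genes with a mean of at least 10 CPM. Without control 4, whose Txnip level was the lowest of the controls, the log2 fold change was -2.62, and without control 1, whose level was the highest, it was -2.29. Control 3, the homozygous floxed embryo, lay within the range of the heterozygous controls. In bulk tissue, fewer cells of a type and less RNA per cell cannot be told apart. Gm15441 is an antisense gene that shares 606 of the 3123 exon bases of Txnip. It had 15 to 22 counts in the controls and 6 and 4 counts in the libraries labelled Foxp1cKO, with a log2 fold change of -1.63. The libraries were made with a stranded kit, but the strand setting of the counting is not given in the sources used here, so reads over the shared bases cannot be assigned with certainty to either gene.

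The promoters of Txnip and Arrdc4 are shown because these were the 2 members with the largest differences, and short stretches of the Txnrd1 and Mlx promoters because they hold a searched motif. Sequences are those of RefSeq on GRCm38.p6, where 14 promoters matched the 10 genes, each read 5′ to 3′ along the gene. Capitals mark the searched motifs on either strand: in Txnip the paired CACGNG boxes, a forkhead match and CCAAT boxes, in Arrdc4 an E-box and CCAAT boxes, in Txnrd1 an antioxidant response element, and in Mlx an E-box. The windows are chr3:96557707-96557956 (plus strand) for Txnip, chr7:68749239-68749488 (minus strand) for Arrdc4, chr10:82859102-82859131 (plus strand) for Txnrd1 and chr11:101087236-101087265 (plus strand) for Mlx.
Txnip: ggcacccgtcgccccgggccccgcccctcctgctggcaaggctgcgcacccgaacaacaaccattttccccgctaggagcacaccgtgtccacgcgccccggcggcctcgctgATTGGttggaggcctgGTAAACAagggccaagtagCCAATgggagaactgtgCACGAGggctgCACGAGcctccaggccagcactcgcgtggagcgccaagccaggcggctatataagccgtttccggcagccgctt
Arrdc4: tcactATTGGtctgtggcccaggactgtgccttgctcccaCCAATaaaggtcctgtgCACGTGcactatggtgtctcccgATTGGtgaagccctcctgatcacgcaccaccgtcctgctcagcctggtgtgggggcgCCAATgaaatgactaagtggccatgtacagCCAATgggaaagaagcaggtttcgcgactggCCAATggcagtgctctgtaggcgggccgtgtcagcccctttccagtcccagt
Txnrd1: gactggattttTGCTTTGTCAttctgacac
Mlx: ttggtgggttggatCACGTGactgagcctc

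CACGNG boxes separated by 5 bases are the layout of a carbohydrate response element, and this motif was searched with the Txnip promoter's published element known. It was found in 15 of 32851 promoters of 250 bases before a start site (0.0457%), and of the members in Txnip alone, 85 to 69 bases before the start. An E-box, CACGTG, which is also a spelling of CACGNG, was found in 6.02% of promoters, among them Arrdc4 (193 to 188 bases before the start) and Mlx (40 to 35). The forkhead motif TGTTTAC was found in 3.17% of promoters and, of the members, in Txnip, on the opposite strand 121 to 115 bases before the start. CCAAT boxes stood in 33.8% of promoters and in 8 of the 10 members, with 6 matches in Arrdc4 and 2 in Txnip. The antioxidant response element, TGAC and GCA with any 3 bases between them, was found in 2.47% of promoters and, of the members, in Txnrd1, on the opposite strand 93 to 84 bases before the start at 82859206. These are matches of letters on both strands and not binding sites, and no binding was measured here.

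Arrdc4 (ENSMUSG00000042659.15, chromosome 7, 68736995 to 68749241, minus strand) encodes the alpha-arrestin closest to Txnip, which also acts on glucose transporters. It had 32.4, 35.4, 33.6 and 23.4 CPM in controls 1 to 4 and 15.5 and 13.7 CPM in the libraries labelled Foxp1cKO. Both of these were below every control, and the lowest control, control 4, was 1.51 times the higher of them. The log2 fold change was -1.10 (SE 0.182), or 2.14-fold lower, and it was -1.21 without control 4. With each other library left out in turn it stayed between -1.19 and -1.03.

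Arrdc3 (ENSMUSG00000074794.10, chromosome 13, 80883384 to 80896042, plus strand) encodes an alpha-arrestin that guides receptors such as beta-adrenergic receptors to ubiquitin ligases. Its level was 112, 127, 119 and 83.3 CPM in controls 1 to 4 and 115 and 153 CPM in the libraries labelled Foxp1cKO. The first of these lay inside the control range and the other above it. The log2 fold change was 0.28 (SE 0.184), the only positive one of the 10 genes, and it ranged from 0.039 to 0.47 as each library was left out. Arrdc2 (ENSMUSG00000002910.11, chromosome 8, 70835129 to 70839720, minus strand) encodes an alpha-arrestin about which less is known. It had 7.18 to 8.25 CPM in the controls and 6.74 and 8.62 CPM in the libraries labelled Foxp1cKO, which lay on either side of the control range. Its log2 fold change was -0.013 (SE 0.160), and it was 0.15 without the library labelled Foxp1cKO 1 and -0.22 without the other. The 3 relatives of Txnip therefore took 3 different positions: Arrdc4 was lower without overlap, Arrdc3 was higher with overlap, and Arrdc2 overlapped on both sides.

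**Figure D1:**
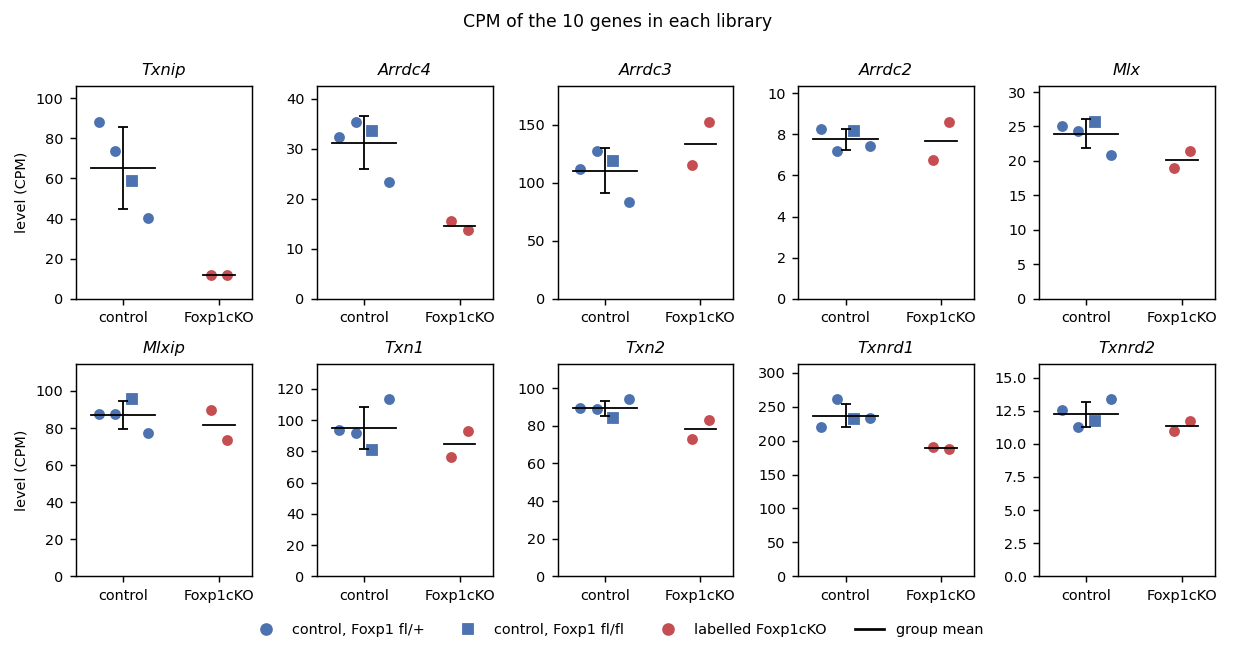
Level of each gene in each library, with CPM from 0 on the vertical axis, where circles are Foxp1 fl/+ controls, squares the Foxp1 fl/fl control, red circles the libraries labelled Foxp1cKO, lines group means and bars the SD of the controls. Txnip is at 40.4 CPM or more in the controls and at 11.97 CPM or less in the libraries labelled Foxp1cKO, Arrdc4, Txn2 and Txnrd1 also show no overlap, and the other 6 genes overlap.

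Mlx (ENSMUSG00000017801.15, chromosome 11, 101087277 to 101092207, plus strand) encodes the common partner of the Mondo factors. It had 25.0, 24.3, 25.7 and 20.9 CPM in controls 1 to 4 and 19.0 and 21.4 CPM in the libraries labelled Foxp1cKO, the latter just above control 4. The log2 fold change was -0.25 (SE 0.119), with -0.35 to -0.16 as each library was left out. Mlx shares 385 exon bases with Psmc3ip on the other strand, so part of its count is uncertain in the same way as for Txnip. Mlxip (ENSMUSG00000038342.15, chromosome 5, 123394798 to 123457932, plus strand), which encodes MondoA, had 87.4, 87.4, 95.6 and 77.4 CPM in the controls and 89.6 and 73.5 CPM in the libraries labelled Foxp1cKO. Its log2 fold change was -0.093 (SE 0.115), and its sign turned to 0.025 without the library labelled Foxp1cKO 2. The genes for both factors thus differed by far less than Txnip and Arrdc4.

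Txn1 (ENSMUSG00000028367.5, chromosome 4, 57943373 to 57956411, minus strand) encodes the cytosolic thioredoxin that Txnip binds. It had 93.7, 91.4, 80.8 and 113 CPM in the controls and 76.0 and 93.1 CPM in the libraries labelled Foxp1cKO, with a log2 fold change of -0.16 (SE 0.148). Control 4 was the highest for Txn1 and the lowest for Txnip. A processed copy of Txn1 exists in the mouse genome. The study's methods state that only uniquely mapped reads were used. Reads that match both places equally were therefore left out, which makes the Txn1 level uncertain. Txn2 (ENSMUSG00000005354.16, chromosome 15, 77915047 to 77929006, minus strand), the mitochondrial thioredoxin, had 89.3, 89.2, 84.3 and 94.1 CPM in the controls and 73.1 and 83.1 CPM in the libraries labelled Foxp1cKO. Both lay below the controls, the second by a small margin, and the log2 fold change was -0.19 (SE 0.0854). It moved to -0.10 without the library labelled Foxp1cKO 1 and to -0.30 without the other.

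Txnrd1 (ENSMUSG00000020250.10, chromosome 10, 82833951 to 82897712, plus strand) encodes the cytosolic reductase, a selenoprotein that recharges Txn1. It had 221, 261, 232 and 233 CPM in the controls and 191 and 188 CPM in the libraries labelled Foxp1cKO. The groups did not overlap, and the log2 fold change was -0.32 (SE 0.0867), with -0.37 to -0.27 as each library was left out. Txnrd2 (ENSMUSG00000075704.16, chromosome 16, 18426384 to 18479073, plus strand), the mitochondrial reductase, had 11.3 to 13.4 CPM in the controls and 11.0 and 11.7 CPM in the libraries labelled Foxp1cKO. Its log2 fold change was -0.11 (SE 0.126). The reductase and the thioredoxin of the mitochondria were thus both slightly lower on average, with overlap for Txnrd2 and none for Txn2.

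**Figure D2:**
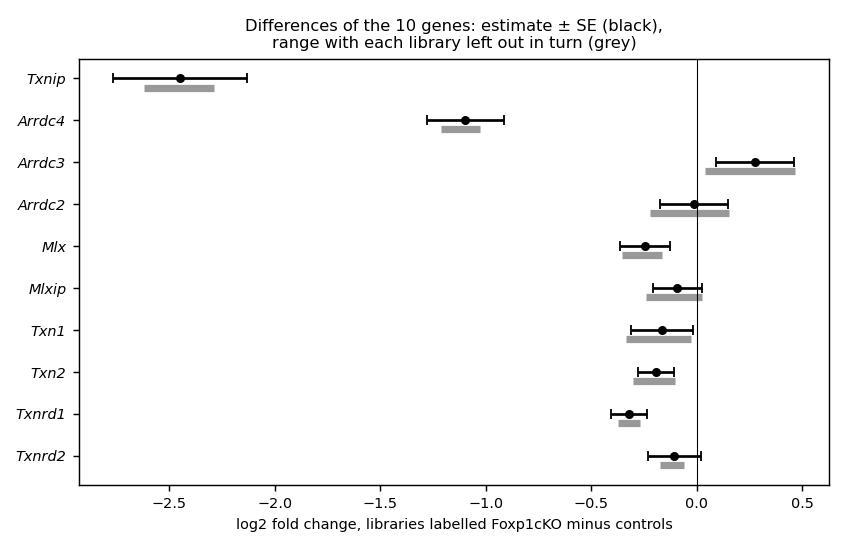
Log2 fold change of each gene, libraries labelled Foxp1cKO minus controls, on the horizontal axis, with the estimate ± SE in black and in grey the range with each library left out in turn. Txnip at -2.45 and Arrdc4 at -1.10 stand apart from the other 8 genes, which lie between -0.32 and 0.28.

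Of the 10 genes, 9 had a lower and 1 a higher fold change, and their median was -0.18 on the log2 scale against -0.0044 over all genes. Both libraries labelled Foxp1cKO were below all controls for 4 of them, Txnip, Arrdc4, Txn2 and Txnrd1, where 13.1% of all genes were, and above all controls for 0, where 11.5% of all genes were. With p-values of edgeR's quasi-likelihood test adjusted over the whole table by Benjamini and Hochberg, 0 of the 10 passed an adjusted p of 0.05. In that test 0.152% of all genes passed, every one of them higher, so that 0% passed as lower. At an unadjusted p under 0.05, 3 of the 10 were lower (Txnip, Arrdc4 and Txnrd1) and 6.5% of all genes were. DESeq2 called 2 of the 10 lower (Txnip and Arrdc4) and 1.16% of all genes, and limma on the deposited log2-like values called 0. Without control 4, edgeR called the same 2 genes lower, and 0.0762% of all genes. The list was chosen with these differences known, so the counts describe the members and are not a test of them. Control 3 lay within the range of the heterozygous controls for 6 of the 10 genes. The share over all genes is not given here, so this count cannot show whether control 3 was like them.

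Ratios between genes of the same library do not depend on the scaling of libraries. The Txnip to Txn1 ratio of CPM was 0.943, 0.808, 0.727 and 0.356 in controls 1 to 4 and 0.157 and 0.129 in the libraries labelled Foxp1cKO. Relative to its mean this ratio spread more in the controls (CV 35.5%) than the other ratios that held an arrestin (CV 1.59% to 24.0%), with control 4 low for Txnip and high for Txn1. The Txnip to Arrdc4 ratio was 2.73, 2.09, 1.75 and 1.73 in the controls and 0.772 and 0.876 in the libraries labelled Foxp1cKO, so Txnip was lower relative to Arrdc4 as well. The Txnip to Arrdc3 ratio was 0.485 to 0.788 in the controls and 0.104 and 0.0785 in the libraries labelled Foxp1cKO.

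The Arrdc4 to Arrdc3 ratio had the lowest CV of these among the controls. It was 0.289, 0.278, 0.283 and 0.281 in controls 1 to 4, a mean of 0.283 ± 0.0045 (SD, n = 4), although each gene alone varied by about 17% (CV of 17.1% for Arrdc4 and 17.3% for Arrdc3). Both genes were low in control 4, by a like factor. In the libraries labelled Foxp1cKO the ratio was 0.135 and 0.0895, below all controls. The ratios of Txn1 to Txnrd1, Txn2 to Txnrd2 and Mlx to Mlxip overlapped between the groups. They were 0.348 to 0.487, 7.04 to 7.89 and 0.269 to 0.287 in the controls, and 0.399 and 0.495, 6.66 and 7.09, and 0.212 and 0.291 in the libraries labelled Foxp1cKO.

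**Figure D3:**
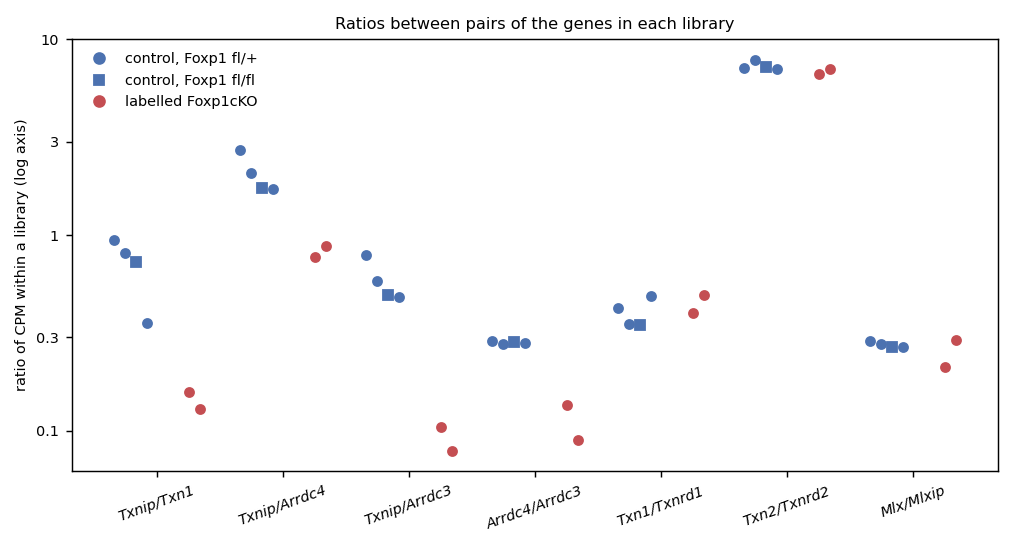
Ratio of the CPM of a pair of genes within each library, on a log axis, with controls in blue (the square is Foxp1 fl/fl) and the libraries labelled Foxp1cKO in red. The 4 ratios with Txnip or Arrdc4 on top separate the groups, with the controls within 0.278 to 0.289 for Arrdc4/Arrdc3, and the other 3 overlap.

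Levels were compared between genes after division by exon length, as CPM per kilobase of summed exons. In the controls Txn1 was the highest at 90.2 ± 12.9 CPM per kilobase (SD, n = 4), followed by Txnrd1 at 33.4 ± 2.43. Txn2 at 21.2, Txnip at 20.9 and Arrdc3 at 17.6 came next, and neighbours in this run had overlapping control ranges and did not differ beyond their spread. Mlx at 11.99 and Mlxip at 10.4 also overlapped each other, Arrdc4 followed at 7.72, and Txnrd2 at 2.78 and Arrdc2 at 2.40 were the lowest, with ranges of 2.57 to 3.04 and 2.22 to 2.55 that met without overlap. In the libraries labelled Foxp1cKO, Txnip ranked 7 of the 10 in place of 4, at 3.83 CPM per kilobase in both, and stood beside Arrdc4 at 3.84 and 3.38. Arrdc3 ranked 3 there, at 21.3 CPM per kilobase. With the longest transcript in place of summed exons, Arrdc3 ranked 4 and Txnip 5 in the controls, and Txnip again 7 in the libraries labelled Foxp1cKO. By that length Txn2 had 41.1 to 45.9 CPM per kilobase in the controls. This was above Arrdc3 (20.2 to 30.8) and Txnip (14.3 to 31.3) without overlap, so the overlap of Txn2 with Txnip depended on the length used.

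**Figure D4:**
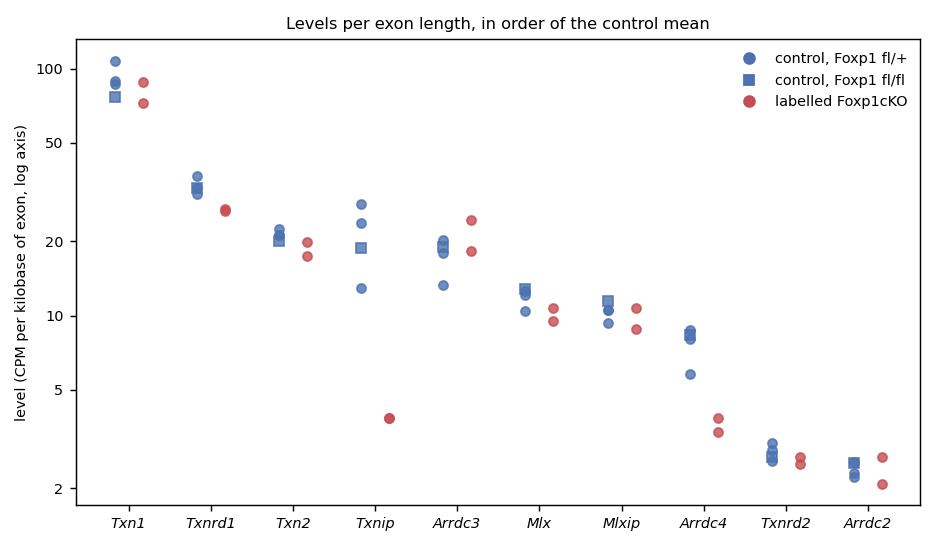
Level of each gene per kilobase of summed exons, on a log axis, in order of the control mean, with controls in blue (the square is Foxp1 fl/fl) and the libraries labelled Foxp1cKO in red. Txnip has 12.9 to 28.3 CPM per kilobase in blue and 3.83 in red, beside Arrdc4 at 3.84 and 3.38.

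The genes whose pattern was most like that of Txnip were ranked by Pearson's r of log2 CPM over the 6 libraries, among genes with a mean of at least 10 CPM, as a description. The 6 points are 2 groups of libraries, so r is high for any gene that separates the groups and has the same order among controls. The 5 highest were Ppp6r1, a subunit of protein phosphatase 6 (0.995), Hdac3, a histone deacetylase (0.992), Eif2ak1, the haem-regulated kinase of eIF2 (0.989), Aars, the alanyl-tRNA synthetase (0.988), and Zfp740, a zinc finger protein (0.988). Their own differences were small, with log2 fold changes of -0.31 to -0.20. The 5 lowest were Carf (-0.996), Zxdc (-0.994), Klhl28 (-0.994), Zup1 (-0.993) and the uncharacterized F630040K05Rik (-0.991). The last had 0.823 to 2.27 CPM in the controls and 33.1 and 38.0 CPM in the libraries labelled Foxp1cKO, with a log2 fold change of 4.69 (SE 0.353, adjusted p = 0.00963 in edgeR's quasi-likelihood test). Of the members, Arrdc4 had an r of 0.975, Txnrd1 of 0.861, Mlx of 0.837 and Txn2 of 0.706, and Mlxip, Txnrd2 and Txn1 lay between 0.274 and 0.443. Arrdc3 had an r of -0.318, and Arrdc2 was under 10 CPM and was not ranked.

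The other genes of the pathway were counted on 10 lists. Of 84 genes in the table, 40 were higher and 44 lower, with a median log2 fold change of -0.011. Only Slc2a3 passed edgeR's adjusted threshold, and at an unadjusted p under 0.05 there were 7 higher and 6 lower of the 84, where 6.53% of all genes were higher and 6.5% lower. DESeq2 called 4 higher (Slc2a3, Slc2a1, Ddit4 and Scd1) and 2 lower (Mxd3 and Prkag1), where it called 1.82% of all genes higher and 1.16% lower. Of the close relatives, Arrdc1 had a log2 fold change of 0.15 (SE 0.158), Mlxipl, which encodes the Mondo factor ChREBP, 0.38 (SE 0.355, at 0.710 to 1.57 CPM), and Txnrd3 -0.025 (SE 0.251), and all 3 overlapped between groups. Arrdc5 was not analysed here.

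Slc2a3, the neuronal glucose transporter GLUT3, had 20.6, 20.9, 21.3 and 18.1 CPM in controls 1 to 4 and 45.4 and 45.6 CPM in the libraries labelled Foxp1cKO. It rose by 1.17 on the log2 scale (SE 0.0919, adjusted p = 0.00963, edgeR's quasi-likelihood test). The adjusted p was 0.0726 without control 1, 0.0763 without control 2, and 0.0792 and 0.162 without the libraries labelled Foxp1cKO 1 and 2, so the call was lost in each of these fits, and over all alternatives it ran from 3.13e-20 to 0.162. Slc2a1, the transporter GLUT1 of blood vessels and progenitors, had 79.0 to 107 CPM in the controls and 180.3 and 283 CPM in the libraries labelled Foxp1cKO, with a log2 fold change of 1.31 (SE 0.185, adjusted p = 0.0758, edgeR). Slc2a4, the insulin-responsive GLUT4, had a log2 fold change of -0.16 (SE 0.131). The transporters that Txnip is known to draw from the cell surface thus did not move alike at the RNA level.

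Genes with other roles in the pathway passed edgeR's adjusted threshold in 0 cases. Of 7 other known targets of Mondo factors, 6 were higher and 1 lower, with a median of 0.17. Among them the desaturase Scd1 had 26.4 to 34.6 CPM in the controls and 55.3 and 40.6 CPM in the libraries labelled Foxp1cKO (log2 fold change 0.69, SE 0.152, adjusted p = 0.242, edgeR), and the repressor gene Klf10 had -0.27 (SE 0.173). Pklr, the pyruvate kinase of liver and red cells, is named after its values were seen, with 0.0969, 0.0966, 0.0412 and 0.406 CPM in controls 1 to 4 and 0.616 and 0.936 CPM in the libraries labelled Foxp1cKO. Its log2 fold change was 2.24 (SE 0.730) and edgeR's adjusted p was 0.302, against 3.31 and 0.049 without control 4, and the lowest control held no more than the floor of 3 counts. Txnip and Arrdc4 lay on the opposite side of 0 from most of these 7 targets. Whether a Mondo factor acts on any of them in this tissue was not tested. Of 8 glucocorticoid targets, a group to which Txnip is also counted, 5 were higher and 3 lower, with a median of 0.18. Ddit4, an inhibitor of mTORC1, had 54.3 to 78.3 CPM in the controls and 112 and 197 CPM in the libraries labelled Foxp1cKO (log2 fold change 1.18, SE 0.226, adjusted p = 0.194, edgeR), and Tsc22d3 had -0.17 (SE 0.116). The HECT ubiquitin ligases, which arrestins recruit and of which Itch degrades Txnip, had 4 higher and 5 lower and a median of -0.0075, from -0.14 for Hecw1 to 0.24 for Hecw2. The subunits of AMPK, the kinase that marks Txnip for degradation, had 2 higher and 4 lower and a median of -0.13, from -0.26 for Prkag1 to 0.16 for Prkab2.

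On the side of thioredoxin, 12 of 18 thioredoxin-like proteins were lower and 6 higher (median -0.088), from -0.27 for Txndc11 to 0.18 for Nxn. Of 14 genes of peroxide and methionine sulfoxide reduction, a list that also holds the glutathione reductase gene Gsr, 11 were lower and 3 higher (median -0.15). They ran from -0.35 for Prdx1 (SE 0.192), the cytosolic peroxiredoxin, to 0.11 for Msrb3 (SE 0.420). The targets of NRF2, the factor that binds antioxidant response elements, split into 4 higher and 4 lower (median 0.020), between Srxn1 at -0.15 (SE 0.136) and Hmox1 at 0.89 (SE 0.402). In the MAX network, the family of partners and rivals to which Mlx belongs, 6 were higher and 4 lower (median 0.034), from -0.47 for Mxd3 (SE 0.114) to 0.37 for Mycn (SE 0.181). The small downward medians of the thioredoxin lists had the sign of the 4 thioredoxin and reductase genes among the members, and none of their genes passed the adjusted threshold.

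**Figure D5:**
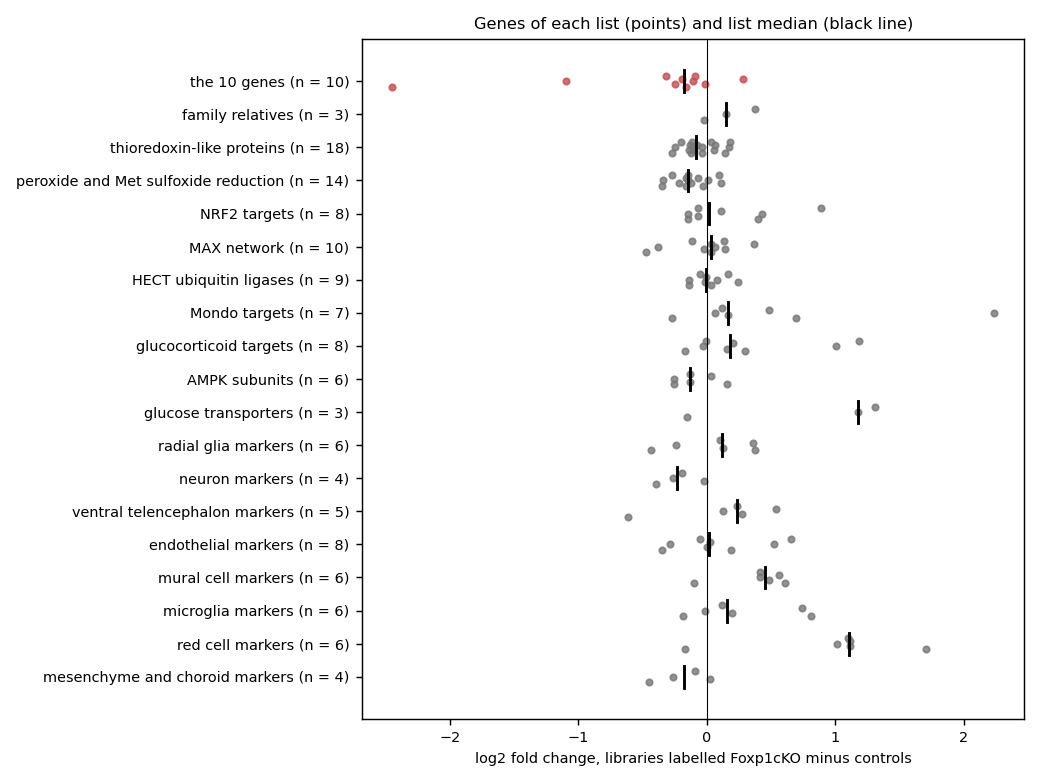
Log2 fold change of every gene of each list (points), libraries labelled Foxp1cKO minus controls, with the list median as a black line; n is the number of genes in the table. The 10 genes are in red, with Txnip at -2.45, and the red cell markers and glucose transporters have the highest medians, at 1.11 and 1.17.

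Markers of other cell types were counted beside these differences. Of 6 red cell markers, 5 were higher and 1 lower, with a median of 1.11, and their summed level was 1026 to 3295 CPM in the controls and 3647 and 3883 CPM in the libraries labelled Foxp1cKO. The highest control for this sum was control 4, which also had the lowest Txnip and Arrdc4 of the controls. Control 4 had the lowest sum of the 4 neuron markers too, at 2246 CPM against 3149, 3792 and 4037 CPM in controls 1 to 3, and the libraries labelled Foxp1cKO had 2910 and 2931 CPM. Of 6 mural cell markers, 5 were higher (median 0.45), with sums of 71.4 to 93.5 CPM in the controls and 113 and 119 CPM in the libraries labelled Foxp1cKO. Rgs5 was the highest of these at a log2 fold change of 0.61 (SE 0.106), Anpep the lowest at -0.10. The 8 endothelial markers had a median of 0.014 and sums of 136 to 210 CPM in the controls and 162 and 201 CPM in the libraries labelled Foxp1cKO, from Tek at -0.35 to Pecam1 at 0.65. The 6 microglia markers had a median of 0.15 and sums of 18.3 to 28.3 CPM in the controls and 28.7 and 27.6 CPM in the libraries labelled Foxp1cKO, with C1qa at 0.81 and P2ry12 at -0.19.

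The 5 ventral telencephalon markers had sums of 173 to 616 CPM in the controls, the highest in control 3, and 413 and 296 CPM in the libraries labelled Foxp1cKO, with Gsx2 at 0.54 and Lhx6 at -0.62. The 6 radial glia markers in the table had a median of 0.11, from Fabp7 at -0.43 to Slc1a3 at 0.37, and the 4 neuron markers had a median of -0.23, with Neurod6 at -0.40. The sums of both overlapped between groups, as did that of 4 mesenchyme and choroid markers, whose median was -0.18. No marker among those in the table was at 0 in a library, the other listed markers (Sox2, Tubb3 and Ttr) were not analysed here, and 0 of the 45 marker genes passed edgeR's adjusted threshold. Of all genes, 0.152% passed that threshold. At an unadjusted p under 0.05, 10 markers were higher and 1 was lower, where 6.53% of all genes were higher and 6.5% lower. DESeq2 called 3 markers higher (Hba-a1, Pecam1 and Rgs5) and 0 lower, where it called 1.82% of all genes higher and 1.16% lower. Without control 4 the differences of Txnip and Arrdc4 were larger, as given above. The part of red cell, neuron, mural or other cell content in the lower Txnip and Arrdc4 levels was not tested.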

How the data were processed

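The authors prepared libraries with a stranded kit, used STAR to align the read pairs to mm10 and HTSeq 0.9.1 to count them per gene, and removed genes with low counts, per the labels and the study's methods. The deposited count table holds whole, unnormalized counts. The authors also deposited variance-stabilized values of these counts, on a log2-like scale, used here only for the limma fit and as another scale of the likeness to Txnip. Groups came from the sample labels, and the litter in the authors' model was not used here.

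Counts were fitted in R 4.3.3 with edgeR 4.0.16's quasi-likelihood test (TMM, group alone, all genes, Benjamini-Hochberg, adjusted p under 0.05). Log2 CPM used a prior count of 2. DESeq2 1.42.0, limma 3.58.1, DESeq2's size factors, total counts, a robust fit, a filter on low counts (a mean of at least 10 counts, and 1 CPM in 2 libraries), each library left out and a replicate block were alternatives. The fits were tested on simulated data with 200 changed genes. Chi-square per gene came to 25.9 to 193 between controls and 31.4 between the libraries labelled Foxp1cKO, so no library was a repeat of another. PCR copies are not independent molecules, so floors and counting errors are lower limits of the error.

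The members, the lists and the searched motifs were chosen with earlier results of these data known. Named genes were all members, the 5 genes with the highest and the 5 with the lowest likeness to Txnip, all close relatives and glucose transporters, and of every other list the genes past the threshold or, where fewer than 2 passed, the largest log2 fold change in each direction with a mean of at least 1 CPM. Other genes named (Foxp1, Gad2, Pax6, Tbr1, Pklr, Hba-a1, Gm15441 and Psmc3ip) were chosen after their values were seen or for their position. GENCODE M21 gave symbols for 17047 identifiers of the table and none for 21,, positions and exon lengths, and promoters came from RefSeq on GRCm38.p6.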

Additional observations from a re-analysis of the deposited data

Results flagged for a closer look

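Hba-x, an embryonic globin of red cells, had 559 CPM in control 4 and 80.2 to 112 CPM in the other 3 controls. The gap to the nearest control was 0.934 of the range of the 4, above Dixon's limit for 4 samples. Of the 57 genes named by rule, it was the only one with a control this far from the others. Chance alone marks about 1 in 20 such groups. Genes named for other reasons were not checked, among them Gad2, with 250 CPM in control 3 and 57.9 to 83.6 CPM in the other controls. Pklr was not checked either, with 0.406 CPM in control 4 and 0.0412 to 0.0969 CPM in the other controls. Control 4 also had the lowest Txnip, Arrdc4 and summed neuron marker levels of the controls, and the part of red cell or neuron content in the Txnip and Arrdc4 levels was not tested.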

How the results depend on the processing

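The log2 fold changes of Txnip and Arrdc4 kept their sign in all 13 alternatives, from -2.75 to -2.11 and from -1.22 to -0.93. The values of -2.75 and -1.22 came from the replicate block described below. That of Arrdc2 changed sign in 2 of 13 and that of Mlxip in 1 of 13. Of all genes, 26 passed in the main test, 507 in DESeq2 (310 higher and 197 lower) and 2 to 96 with each library left out, the lowest without control 2 and the highest without control 4. Of the members 0 passed, against 2 in DESeq2 and 0 to 2 with each library left out. Of the pathway genes 1 passed, against 6 in DESeq2 and 0 to 2 with each library left out. A replicate block by number left 0 genes past the threshold in edgeR (3027 at an unadjusted p under 0.05), among them 0 members and 0 pathway genes. Same-numbered libraries' deviations correlated at -0.116 for numbers 1 and 2, which cannot show whether the numbers mark litters. A crossed block, added after the data were seen, gave 1301 calls (842 higher and 459 lower, 7.62% of all genes). Among them were 3 members, all lower, and 10 pathway genes. In both blocks controls 3 and 4 stood alone, so the group differences rested on the libraries numbered 1 and 2. Of the 10 genes most and least like Txnip, 6 were shared on the variance-stabilized scale and 4 with Spearman's rank correlation, where 40 genes tied as most and 54 as least alike. Only 2 libraries carry the Foxp1cKO label, and leaving out either leaves a lone library whose spread is taken from the controls.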
